A study of Mus musculus with 19 samples.

Results

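The genes described here encode the subunits of the oxidative phosphorylation machinery that are made from nuclear DNA, in mouse induced pluripotent stem cells (iPSC) with and without a mutation of the leptin receptor gene Lepr. They were every protein-coding gene of the deposited table whose symbol names a subunit of complex I, II, III, IV or V by its series name (Nduf a, b, c, s or v, Sdh a to d, Uqcr, Cyc1, Cox4 to Cox8, Atp5), with pseudogenes left out. The rule found 86 of 52143 rows. By their textbook places, 35 belonged to complex I, 4 to complex II, 9 to complex III, 18 to complex IV and 16 to complex V. Another 4 were left outside the complexes: Ndufa4l2, a paralogue of Ndufa4; Cox7a2l, which joins complexes III and IV into supercomplexes; Atp5s, a factor named after the ATP synthase; and a second identifier of Atp5o. Ndufa4 was counted with complex IV, where its protein was later found, although its name points to complex I.

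The cells were 10 lines sequenced as 19 libraries. Gene-corrected lines (2 lines, 4 libraries) were db/db iPSC whose mutation had been repaired with CRISPR-Cas9. The db/db lines (4 lines, 8 libraries) carried the db mutation of Lepr on both copies. Control lines (4 lines, 7 libraries) were wild type, and their titles carry the label B6. All were made from fibroblasts of embryos at day 14.5, bred from heterozygous parents, by infection with the STEMCCA lentivirus (Oct4, Sox2, Klf4, cMyc), which the control lines therefore carry too. Lines 1 and 3 of the db/db group share the name db5 and lines 2 and 4 the name db7. Control lines 1 and 3 share the name A5 and lines 2 and 4 the name B1. In both groups the titles of lines 1 and 2 begin with the letter a and those of lines 3 and 4 with b. The titles do not say what this letter stands for, and the fit held no term for it. Lines of a shared name were close to each other, with a median absolute log2 difference of 0.038 to 0.106 over 9148 genes with at least 10 CPM, against 0.147 to 0.222 between names of a group. Both corrected lines differed by 0.033, as little as lines of a shared name, and the db/db parent of the corrected lines is not named. Libraries held 27333914 to 41203703 estimated counts, of which the subunit genes took 0.883% to 1.036%. Lepr itself was at 0.718 and 0.606 CPM (counts scaled to a common library size) in the corrected lines, 0.186 to 0.371 CPM in db/db lines and 0.348 to 0.46 CPM in control lines. The db allele changes splicing, so a count for the whole gene checks neither the genotype nor its repair.

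Oxidative phosphorylation passes electrons from NADH (through complex I) and from succinate (through complex II) by way of ubiquinone to complex III, cytochrome c and complex IV, where oxygen is reduced. Complexes I, III and IV pump protons across the inner mitochondrial membrane, and complex V, the ATP synthase, uses their return to make ATP. All complexes except complex II also hold subunits made from mitochondrial DNA. Pluripotent stem cells rely strongly on glycolysis, and the subunit genes rise in many tissues as cells differentiate.

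In the 2 corrected lines, the subunit genes were lower as a group. Against db/db lines 46 of 82 tested genes fell and 1 rose, and against control lines 51 fell and 2 rose. The changes were small: the median log2 fold change was -0.28 against db/db lines and -0.34 against control lines, whereas the median over all 19702 genes tested was 0.02 and -0.01. Between db/db and control lines 6 subunit genes rose and 4 fell, with a median of -0.01. Atp5s rose in both comparisons of the corrected lines and Cox6b2 against control lines, and 4 genes were hardly detected and not tested.

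Calls rest on edgeR's quasi-likelihood test with lines as replicates and an adjusted p (Benjamini-Hochberg over all genes tested) under 0.05. Of all genes, 18.0% fell and 18.7% rose in corrected against db/db lines, and 17.0% fell and 16.2% rose in corrected against control lines. The subunit genes that fell made up 56.1% and 62.2% of those tested. In db/db against control lines 4.88% of the subunit genes fell, against 9.5% of all genes, and 7.32% rose, against 7.41% of all genes. Levels did not overlap between groups, with both corrected lines below every db/db line, in 75.6% of the subunit genes and 28.8% of all genes; both lay below every control line in 86.6% of the subunit genes and 30.5% of all genes. The comparisons of corrected lines share those 2 lines and are not independent of each other. Where shared names serve as samples below, the 2 corrected lines stay separate samples, although they were as alike as lines of a shared name. Calls that held by shared name rest on counting these 2 lines apart. With each shared name as a single sample, 19 subunit genes fell and 0 rose against db/db (23.2% called, against 15.5% of all genes), 17 fell and 1 rose against control (22.0%, against 12.1%), and none was called in db/db against control, where 0.161% of all genes were. In that last comparison 3 of 82 rose and 4 fell at an unadjusted p under 0.05 (edgeR) by shared name. These are not calls, and the share of all genes at that p was not counted. DESeq2 called 10 rises by line, where it called 2288 rises among all 19702 genes. With each library as a sample edgeR called 13 rises and 16 falls, where 3580 of all 17548 genes tested rose and 3669 fell. Among the subunit genes described below, calls against db/db lines held by shared name for Ndufc1, Ndufs7, Ndufv1, Ndufv3, Sdhb, Uqcrb, Cox7b, Atp5a1, Atp5c1, Atp5f1, Atp5g1, Cox7a2l and Ndufa4l2. Against control lines they held for Ndufs7, Ndufv1, Sdhb, Cyc1, Uqcrc1, Uqcrq, Cox4i2, Cox5a, Cox6b1, Cox6b2, Atp5a1, Atp5c1, Atp5g1 and Cox7a2l. The other calls given below for subunit genes ended by shared name. Without corrected line 1 or 2 the median log2 fold change of the subunit genes was -0.281 or -0.28 against db/db lines. Against control lines it was -0.331 or -0.31. Fewer genes were then called, both among the subunit genes and among all genes.

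**Figure D1:**
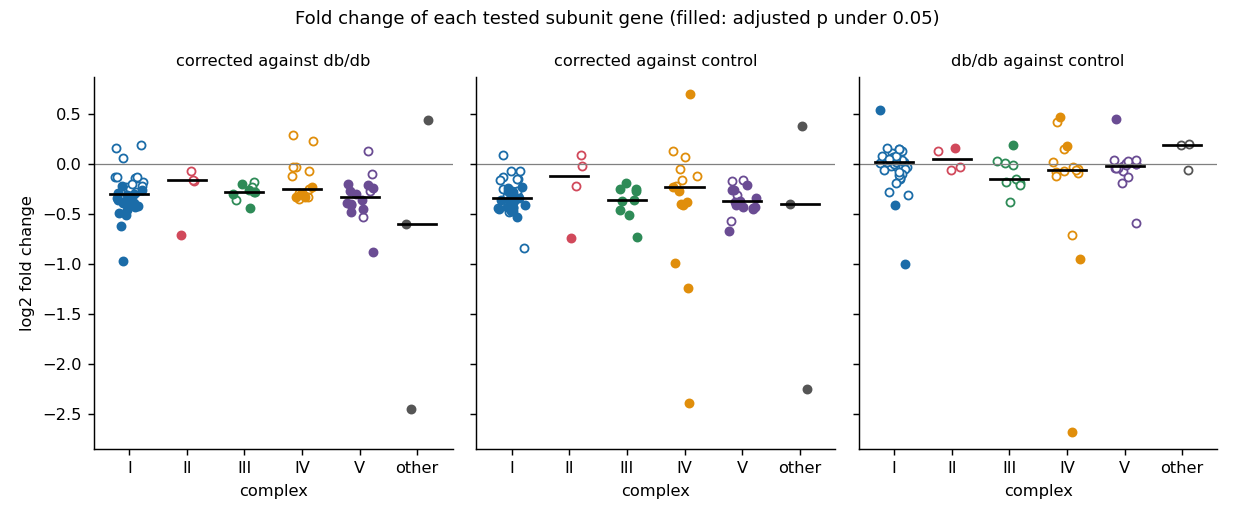
Log2 fold change (vertical axis) of each tested subunit gene by complex in corrected against db/db, corrected against control and db/db against control lines; filled points passed an adjusted p of 0.05 and bars are medians. In the left and middle panels the medians of complexes I to V lie between -0.12 and -0.37, and in the right panel between -0.14 and 0.06.

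Line by line, the complexes differed in depth. Relative to the mean of the control lines, the median log2 level of complex V genes was -0.37 in both corrected lines, that of complex I genes -0.32 and -0.35, and that of complex III genes -0.33 and -0.35. Complex IV genes stood at -0.22 and -0.26. The 4 genes of complex II, which holds no mitochondrially encoded subunit, stood at -0.14 and -0.10, and their mean moved to 0.01 when lines were scaled by library size alone. The medians of the other complexes kept their sign under every scaling tried, at -0.11 to -0.24 by library size. The same median over all genes with at least 10 CPM lay at -0.08 and -0.09 in the corrected lines.

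Among the db/db lines, line 4 was the lowest in every complex. Its medians were -0.17 for complex I, -0.05 for complex II, -0.32 for complex III, -0.17 for complex IV and -0.18 for complex V. Its partner of the same name, line 2, was close to the control mean in complexes I, IV and V (0.01, 0.01 and -0.01) and lower in complex III (-0.20). The db5 lines lay between -0.04 and 0.15 in every complex. Complex III was thus low in both db7 lines, and in line 4 it came close to the level of the corrected lines. Over all 82 tested genes, 71 were lower in db7 than in db5 lines, with a median difference of -0.14 on the log2 scale. B1 against A5 control lines had a median difference of 0.02, with 39 of 82 genes lower. Names could not be tested, since each stands for 1 pair of lines this close.

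**Figure D2:**
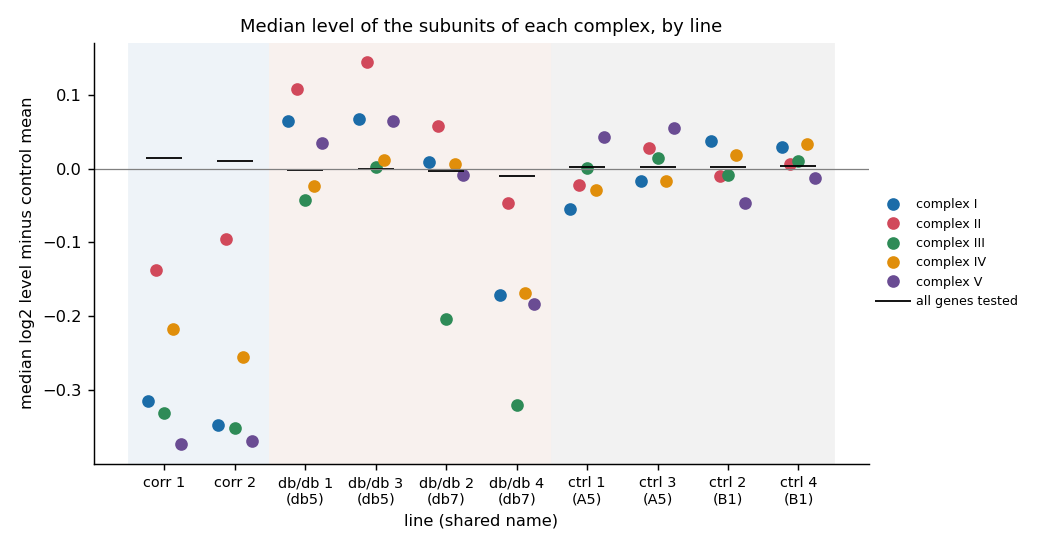
Median log2 level of the tested genes of each complex (points) and of all genes tested (bars) in each line, relative to the mean of the control lines; shading marks corrected, db/db and control lines. Complex V stands at -0.37 in both corrected lines, db/db line 4 is the lowest db/db line in each complex, and control lines lie within -0.06 to 0.06.

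Complex I takes electrons from NADH. Of its 35 genes, 21 fell and 0 rose in corrected against db/db lines (median log2 -0.30), and 20 fell and 0 rose against control (-0.33). In db/db against control lines 1 rose and 2 fell (0.02). Of the 7 core subunits made from nuclear DNA, which carry the flavin and the iron-sulphur clusters, 3 fell against db/db lines and 4 against control lines. Ndufv1, which holds the flavin that accepts electrons from NADH, was at 115 and 112 CPM in corrected lines, 162, 149, 159 and 127 CPM across db/db lines 1 to 4, and 148, 164, 156 and 160 CPM across control lines 1 to 4. Both corrected lines were below all others. Its log2 fold change was -0.39 ± 0.09 (SE) against db/db lines (edgeR, adjusted p = 0.0098) and -0.47 ± 0.09 against control lines (adjusted p = 0.0049).

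Ndufs7, a core subunit that passes electrons to ubiquinone, was at 36.7 and 38.1 CPM in corrected lines, 56.8, 55.8, 55.5 and 45.0 CPM in db/db lines, and 47.1, 52.1, 52.1 and 49.9 CPM in control lines. It fell by 0.51 on the log2 scale against db/db lines (adjusted p = 0.0035). Ndufs1, the largest subunit of complex I, was not lower: corrected lines had 141 and 142 CPM, db/db lines 116 to 132 CPM and control lines 122 to 142 CPM. Both corrected values lay above every db/db line, but the log2 difference of 0.20 was not called by edgeR (adjusted p = 0.074).

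Among the 28 accessory subunits of complex I, which surround the core, 18 fell in corrected against db/db lines and 16 against control lines. The largest fall against db/db lines was that of Ndufc1, a small membrane subunit. It had 13.9 and 14.8 CPM in corrected lines, 23.1, 37.2, 22.6 and 29.5 CPM in db/db lines and 18.0, 19.6, 18.3 and 21.4 CPM in control lines. All db/db lines were above all control lines, and the db7 lines were the highest. It fell by 0.97 ± 0.19 in corrected against db/db lines (adjusted p = 0.0038) and rose by 0.54 ± 0.15 in db/db against control lines (adjusted p = 0.036), while corrected against control lines did not pass (log2 -0.43, adjusted p = 0.1). Ndufv3, a small subunit of the NADH-binding module, was at 37.2 and 37.5 CPM in corrected lines, against 46.6 to 67.8 CPM in db/db lines and 50.05 to 54.4 CPM in control lines. Its fold changes were -0.62 ± 0.14 (adjusted p = 0.0063) and -0.47 ± 0.14 (adjusted p = 0.023). Ndufa5, a subunit of the peripheral arm, fell by 0.49 ± 0.12 against db/db (adjusted p = 0.013). Ndufa9, another subunit near the ubiquinone site, fell by 0.53 ± 0.12 against control (adjusted p = 0.0084).

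Ndufs5, an accessory subunit on the intermembrane side, had the largest fall in db/db lines among genes with at least 5 CPM. It was at 13.6, 29.6, 13.9 and 25.9 CPM across db/db lines 1 to 4 and at 40.0, 40.4, 41.8 and 44.1 CPM in control lines 1 to 4. The db5 lines were the lowest, the db7 lines were between, and no db/db line reached a control line. The fold change was -1.003 ± 0.23 (adjusted p = 0.018; adjusted p = 0.22 with each shared name as a sample). The corrected lines, at 23.1 and 23.4 CPM, stood within the range of the db/db lines, and neither of their comparisons passed (adjusted p = 0.68 against db/db, 0.051 against control). Ndufs5 lies on chromosome 4, 22.0 Mb from Lepr. The other subunit genes on that chromosome were Uqcrh at 14.3 Mb and Sdhb at 39.2 Mb on the same side of Lepr, and Ndufb6 at 61.4 Mb on the other side. Neither Uqcrh, Sdhb nor Ndufb6 passed the test in db/db against control lines (log2 0.03, -0.02 and 0.08). Ndufb4, an accessory subunit, was called lower in db/db lines (7.80 to 9.10 CPM, against 9.81 to 12.1 CPM in control lines; log2 -0.41 ± 0.09, adjusted p = 0.017). Its copy Ndufb4c, a processed pseudogene, was counted at 29.4 to 34.6 CPM in db/db lines and 35.0 to 37.8 CPM in control lines, so how reads were divided between the copies makes this value uncertain.

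Complex II oxidises succinate and is also an enzyme of the citrate cycle. Its 4 genes did not move together. Sdhb, the iron-sulphur subunit, was at 46.6 and 48.0 CPM in corrected lines, 83.3, 75.7, 84.3 and 67.0 CPM in db/db lines, and 73.1, 80.8, 78.6 and 83.0 CPM in control lines. Both corrected lines were far below every other line, and db/db and control lines overlapped. It fell by 0.71 ± 0.10 against db/db lines (adjusted p = 0.00063) and by 0.74 ± 0.10 against control lines (adjusted p = 0.00066). Its mean was 47.3 ± 1.0 CPM in corrected lines (SD, n = 2), 77.6 ± 8.0 CPM in db/db lines and 78.9 ± 4.2 CPM in control lines (SD, n = 4 each). Both calls also held with each shared name as a sample. Sdha, the flavin-bearing subunit that works beside it, was at 231 CPM in both corrected lines, 236 to 249 CPM in db/db lines and 207 to 225 CPM in control lines. Every db/db line was above every control line, by a log2 difference of 0.17 ± 0.05 (adjusted p = 0.038, and 0.38 by shared name), while the corrected lines passed neither test (log2 -0.07 and 0.10). The membrane anchors Sdhc and Sdhd were not called in any comparison (log2 -0.17 and -0.15 in corrected against db/db lines).

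Complex III passes electrons from ubiquinol to cytochrome c. All 9 of its genes fell in corrected against control lines (median log2 -0.36), 6 fell against db/db lines (-0.28), and 1 rose in db/db against control lines (-0.14). Cyc1, the cytochrome c1 subunit, was at 172 and 173 CPM in corrected lines, 244, 208, 246 and 184 CPM in db/db lines, and 321, 248, 331 and 243 CPM in control lines. The corrected lines were the lowest and the A5 control lines the highest, and db/db and B1 control lines overlapped. The fold change was -0.73 ± 0.16 against control lines (adjusted p = 0.007) and -0.35 ± 0.16 against db/db lines (adjusted p = 0.1). Uqcrc1, a large core protein, was at 114 and 116 CPM in corrected lines, 122 to 151 CPM in db/db lines and 154 to 163 CPM in control lines. It fell by 0.28 ± 0.08 against db/db (adjusted p = 0.025) and by 0.46 ± 0.08 against control (adjusted p = 0.0028). Uqcrfs1, the Rieske iron-sulphur protein, had log2 fold changes of -0.22 (adjusted p = 0.085) and -0.37 (adjusted p = 0.014). Uqcrq, a small subunit, fell by 0.50 ± 0.10 against control (adjusted p = 0.0044). Uqcrb, a small ubiquinone-binding subunit, rose in db/db lines (75.6 to 87.6 CPM, against 69.3 to 71.4 CPM in control lines; log2 0.19 ± 0.06, adjusted p = 0.041, and 0.37 by shared name), and its corrected lines, at 59.1 and 59.2 CPM, were below all others.

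**Figure D3:**
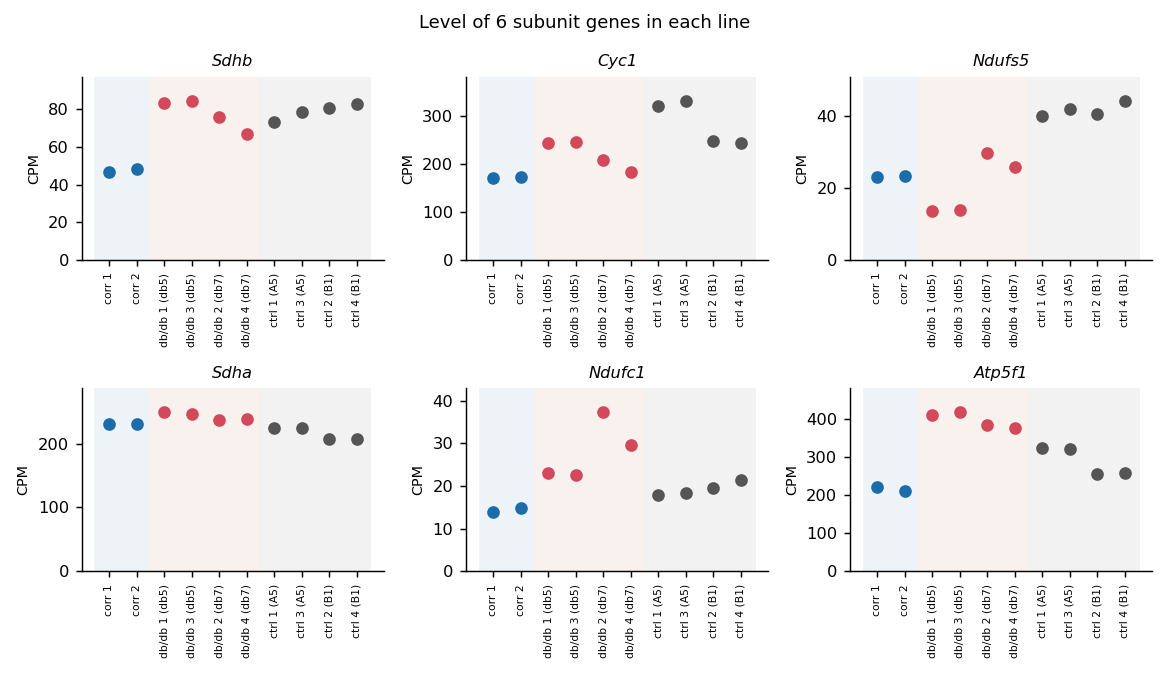
Level (CPM) of 6 subunit genes in each line, with corrected lines (blue) left, db/db lines (red) in the middle and control lines (grey) right. Sdhb and Cyc1 are lowest in the corrected lines, Ndufs5 is lowest in the db5 lines at 13.6 and 13.9 CPM, and Ndufc1 and Atp5f1 are highest in db/db lines.

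Complex V turns the proton gradient into ATP. In corrected against db/db lines 12 of its 16 genes fell (median log2 -0.33), against control 11 fell (-0.37), and none rose. Atp5f1, subunit b of the stalk that holds the catalytic head in place, had the largest fall of complex V against db/db lines. It was at 220 and 212 CPM in corrected lines, 410, 384, 416 and 374 CPM in db/db lines, and 324, 254, 320 and 259 CPM in control lines. The 3 groups did not overlap, with db/db lines the highest. It fell by 0.88 ± 0.11 in corrected against db/db lines (adjusted p = 0.00043) and by 0.42 ± 0.11 against control lines (adjusted p = 0.015), and rose by 0.46 ± 0.09 in db/db against control lines (adjusted p = 0.0084, and 0.2 by shared name). Atp5a1, the alpha subunit of the head, was at 474 and 472 CPM in corrected lines, 553 to 639 CPM in db/db lines and 593 to 638 CPM in control lines. It fell by 0.36 ± 0.07 (adjusted p = 0.0039) and by 0.38 ± 0.07 (adjusted p = 0.0035). Atp5c1, the rotating gamma subunit, fell by 0.40 and 0.41.

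Atp5b, the catalytic beta subunit, which carried the highest CPM of all subunit genes, was not called. It had 1587 and 1593 CPM in corrected lines, against 1492 to 1859 CPM in db/db lines and 1772 to 1789 CPM in control lines. The log2 fold changes were -0.10 ± 0.09 against db/db (adjusted p = 0.41) and -0.16 ± 0.09 against control (adjusted p = 0.17). Atp5o, which couples the head to the stalk, fell by 0.48 ± 0.16 against db/db (adjusted p = 0.038) and by 0.67 ± 0.16 against control (adjusted p = 0.011), the largest called fall of complex V in that comparison. By shared name neither passed (adjusted p = 0.095 and 0.051). The 3 genes of the membrane ring subunit c encode the same mature protein behind different import signals. Atp5g1 fell by 0.45 (adjusted p = 0.0027) and 0.43 (adjusted p = 0.0038), Atp5g3 by 0.24 (adjusted p = 0.034) and 0.37 (adjusted p = 0.0062), and Atp5g2 had 13.8 and 12.1 CPM in corrected lines, 14.5 to 24.4 CPM in db/db lines and 13.9 to 24.5 CPM in control lines with no call (adjusted p = 0.18 and 0.16). Shared sequence makes the division of reads between these 3 genes uncertain.

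Complex IV hands the electrons to oxygen, and many of its nuclear subunits exist as paralogues that differ by tissue. Of 15 tested genes, 4 fell in corrected against db/db lines (median log2 -0.25) and 8 fell and 1 rose against control lines (-0.23). In db/db against control lines 2 rose and 2 fell (-0.06). Cox4i1, the common form of subunit 4, was at 256 and 253 CPM in corrected lines, 284 to 318 CPM in db/db lines and 289 to 321 CPM in control lines. It fell by 0.22 ± 0.07 against db/db lines (adjusted p = 0.024, and 0.093 by shared name) and by 0.27 ± 0.07 against control lines (adjusted p = 0.013, and 0.067 by shared name). Cox5a, a subunit on the matrix side, fell by 0.30 ± 0.08 (adjusted p = 0.013) and by 0.38 ± 0.08 (adjusted p = 0.0049). Cox7b, an X-linked subunit, rose in db/db against control lines (258 to 284 CPM, against 229 to 255 CPM; log2 0.18 ± 0.05, adjusted p = 0.042, and 0.36 by shared name), and fell by 0.33 ± 0.07 in corrected against db/db lines (adjusted p = 0.0036). Cox6a1, the common form of subunit 6a, was at 104 CPM in both corrected lines, 107 to 144 CPM in db/db lines and 124 to 152 CPM in control lines. It fell by 0.41 ± 0.13 against control lines (adjusted p = 0.033, and 0.082 by shared name), and its value of -0.33 against db/db lines was not called (adjusted p = 0.067). Cox6c, Cox7c and Cox8a were not called in any comparison.

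Paralogues did not always move together. Ndufa4, a subunit that stays on complex IV, was at 104 and 108 CPM in corrected lines, 113, 111, 116 and 103 CPM in db/db lines and 116, 113, 118 and 114 CPM in control lines, and was not called (log2 -0.06, -0.12 and -0.06 in corrected against db/db, corrected against control and db/db against control lines). Ndufa4l2 is known as a gene induced by HIF1 in low oxygen that lowers complex I activity. It was at 3.24 and 3.59 CPM in corrected lines, 30.0, 9.47, 27.3 and 7.68 CPM in db/db lines, and 19.0, 13.4, 20.9 and 12.1 CPM in control lines. The corrected lines were below every other line, the db5 lines were above all control lines, and the db7 lines were below them. It fell by 2.45 ± 0.58 against db/db lines (adjusted p = 0.0094) and by 2.26 ± 0.58 against control lines (adjusted p = 0.015, and 0.055 by shared name). Without corrected line 1 or 2 the adjusted p against db/db lines was 0.085 or 0.072. Per transcript length, Ndufa4l2 stood at 2.03% and 2.18% of Ndufa4 in corrected lines, 4.88% to 17.3% in db/db lines and 6.88% to 11.6% in control lines.

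In corrected against control lines the Cox6b pair moved in opposite directions. Cox6b2, the form known from testis, was at 91.7 and 93.05 CPM in corrected lines, 70.3, 90.2, 69.6 and 84.0 CPM in db/db lines, and 63.2, 50.1, 65.1 and 48.4 CPM in control lines. Corrected lines were the highest, and every db/db line was above every control line. It rose by 0.70 ± 0.14 in corrected against control lines (adjusted p = 0.005) and by 0.47 ± 0.12 in db/db against control lines (adjusted p = 0.025, and 0.26 by shared name), whereas corrected against db/db lines did not pass (0.23 ± 0.14, adjusted p = 0.23). Cox6b1, the common form, was at 98.2 and 92.0 CPM in corrected lines, 114 to 126 CPM in db/db lines and 116 to 134 CPM in control lines, and fell by 0.33 ± 0.08 (adjusted p = 0.011) and 0.40 ± 0.08 (adjusted p = 0.0053). Per transcript length the level of Cox6b2 was 98.7% and 107% of that of Cox6b1 in corrected lines, 61.7% to 78.0% in db/db lines and 38.3% to 59.1% in control lines.

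Other tissue forms were below their partners. Cox7a1, the heart and muscle form, was at 3.68 and 3.82 CPM in corrected lines, 5.51, 3.82, 5.999 and 2.92 CPM in db/db lines and 5.51, 8.97, 6.52 and 8.77 CPM in control lines, and fell by 0.99 ± 0.30 in corrected against control lines (adjusted p = 0.031). Cox7a2, its partner, was at 77.9 and 78.1 CPM in corrected lines and 92.6 to 103 CPM in db/db lines; control lines split by name into 51.9 and 52.6 CPM for B1 and 94.0 and 98.7 CPM for A5. Neither its comparison with db/db nor that with control lines passed (adjusted p = 0.3 and 0.85). Per transcript length, Cox7a1 stood at 7.92% and 8.21% of Cox7a2 in corrected lines and 5.30% to 9.76% in db/db lines. Control lines stood at 9.83% and 11.1% for A5 and 28.99% and 27.92% for B1. Cox7b2, a form known from testis, was at 0.678 and 0.736 CPM in corrected lines, 0.864, 0.186, 1.005 and 0.235 CPM in db/db lines, and 2.83, 4.59, 2.52 and 4.88 CPM in control lines. It fell by 2.68 ± 0.49 in db/db against control lines (adjusted p = 0.0066) and by 2.39 ± 0.63 in corrected against control lines (adjusted p = 0.017). Cox4i2, the oxygen-responsive form of subunit 4, was at 0.483 and 0.534 CPM in corrected lines, 0.49 to 0.736 CPM in db/db lines and 1.14 to 1.24 CPM in control lines, and fell in both comparisons with control lines (log2 -1.24, adjusted p = 0.002, and -0.95, adjusted p = 0.0048). The forms of muscle and testis Cox6a2, Cox8b and Cox8c held 12, 2 and 29 counts over all libraries and were not tested, nor was the second identifier of Atp5o, with 11.

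**Figure D4:**
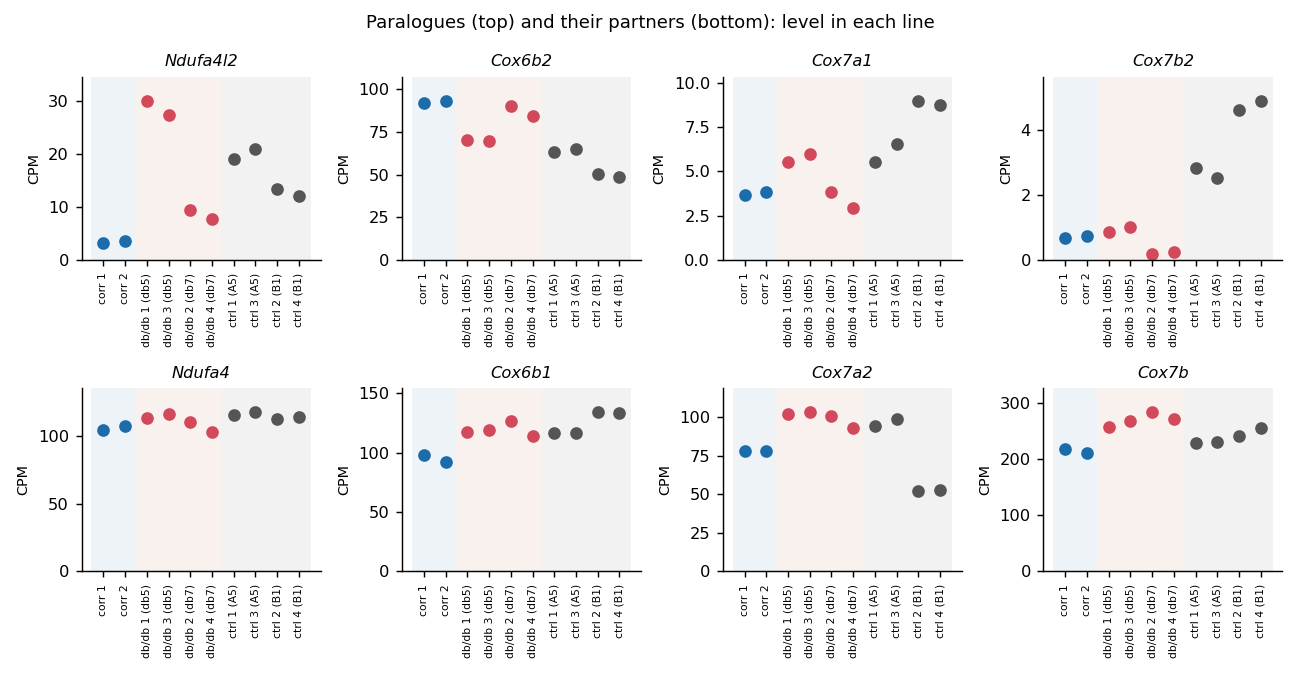
Level (CPM, linear axes from 0) in each line of 4 paralogues (top) and their partners (bottom); colours as corrected (blue), db/db (red) and control (grey). Ndufa4l2 is at 3.24 and 3.59 CPM in corrected lines while Ndufa4 stays between 103 and 118 CPM in all lines, and Cox7a2 splits the control lines by name.

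Cox7a2l, the supercomplex factor, followed the subunits. It was at 93.9 and 92.6 CPM in corrected lines, 151, 137, 151 and 126 CPM in db/db lines, and 129, 119, 124 and 120 CPM in control lines. It fell by 0.60 ± 0.08 against db/db lines (adjusted p = 0.00057) and by 0.40 ± 0.08 against control lines (adjusted p = 0.0048). Atp5s was at 5.65 and 5.82 CPM in corrected lines, 3.75 to 4.60 CPM in db/db lines and 3.85 to 4.80 CPM in control lines. It rose by 0.45 ± 0.14 (adjusted p = 0.027) and 0.39 ± 0.14 (adjusted p = 0.049), and both calls ended with shared names as samples (adjusted p = 0.11 and 0.18).

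Several subunit genes differed between lines of 1 group by name. On chromosome 15 all 5 subunit genes (Cyc1, Ndufb9, Ndufa6, Cox6c and Atp5g2) were higher in A5 than in B1 control lines, with a median difference of -0.41 for B1 minus A5, and all genes of that chromosome with at least 10 CPM had a median of -0.45. On chromosome 6 all genes stood 0.28 higher in B1 lines, and the 4 subunit genes there had a median of 0.03. On chromosome 3 all genes stood 0.31 higher in db7 than db5 lines, and the 3 subunit genes had a median of -0.12, with Ndufc1 alone higher (0.53). In db/db lines 1 to 4, all chromosome 3 genes with at least 10 CPM had medians of 0.14, 0.47, 0.15 and 0.49. These are relative to the control mean. Ndufc1 and Atp5f1, both called higher in db/db than control lines, lie on this chromosome. In the same lines Ndufc1 stood at 0.26, 0.95, 0.23 and 0.61 and Atp5f1 at 0.51, 0.42, 0.54 and 0.38. Ndufb5, the remaining subunit gene there, stood at 0.03, -0.09, 0.04 and -0.24 and was not called in db/db against control lines. In corrected lines 1 and 2 the medians of all these chromosome 3 genes were -0.08 and -0.09. These medians were lower than those of the db/db lines, and Ndufc1, Atp5f1 and Ndufb5 all fell in that comparison. In the corrected lines Ndufc1 stood at -0.475 and -0.383, Atp5f1 at -0.388 and -0.441, and Ndufb5 at -0.356 and -0.358. The part of the chromosome in these calls was not tested. Atp5j, a stalk subunit on chromosome 16, was at 92.99 and 88.97 CPM in corrected lines, 54.5 and 55.95 CPM in db7 lines, 107 and 114 CPM in db5 lines and 106 to 141 CPM in control lines. No comparison of groups called it (adjusted p = 0.12 in db/db against control lines).

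Promoters of the subunit genes were read for the letters bound by factors known to drive respiratory genes. RefSeq windows of 250 bases before to 50 after the start (GRCm38.p6) were matched for 68 of 85 member symbols, giving 73 windows, and were searched on both strands. The nuclear respiratory factor 1 (NRF1) motif (GCGCA, any base, then GCGC) was in 24.7% of the windows, against 6.36% of 21230 windows of protein-coding genes. The ETS motif CCGGAAG was in 21.9%, against 11.6%, and AAGATGGCG, bound by YY1, in 9.59%, against 1.83%. The CCAAT box was in 42.5%, against 38.2%, the estrogen-related receptor motif AAGGTCA in 8 of the 73 windows, against 4.08%, and the hypoxia motif core ACGTG in 26.0%, against 20.9%. Genes with and without the NRF1 motif had similar medians in corrected against db/db lines (log2 -0.28 both). In the same comparison the medians were -0.26 with and -0.29 without the ETS motif, and -0.38 with and -0.28 without the YY1 motif, which 7 genes held.

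The bases just before the start are shown for 4 genes chosen after their values were seen, 5′ to 3′ on the gene's strand and ending at the earliest start that RefSeq or GENCODE M21 gives, with NRF1 matches in capitals. They are Sdha (chr13:74350281-74350490, minus strand), Ndufs5 (chr4:123718203-123718436, minus strand), Sdhb (chr4:140961021-140961202, plus strand) and Cox6b2 (chr7:4753095-4753344, minus strand).
Sdha: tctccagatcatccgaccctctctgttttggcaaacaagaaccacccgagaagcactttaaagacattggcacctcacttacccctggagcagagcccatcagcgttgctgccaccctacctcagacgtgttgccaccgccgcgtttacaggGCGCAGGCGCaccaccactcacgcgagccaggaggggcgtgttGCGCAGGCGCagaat
Ndufs5: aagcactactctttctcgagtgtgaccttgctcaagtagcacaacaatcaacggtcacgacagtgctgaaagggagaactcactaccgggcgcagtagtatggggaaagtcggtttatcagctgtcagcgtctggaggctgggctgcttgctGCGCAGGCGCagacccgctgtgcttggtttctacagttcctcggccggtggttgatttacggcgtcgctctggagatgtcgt
Sdhb: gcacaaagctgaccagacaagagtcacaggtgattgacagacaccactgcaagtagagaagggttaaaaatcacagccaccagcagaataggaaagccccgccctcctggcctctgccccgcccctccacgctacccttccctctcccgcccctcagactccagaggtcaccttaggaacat
Cox6b2: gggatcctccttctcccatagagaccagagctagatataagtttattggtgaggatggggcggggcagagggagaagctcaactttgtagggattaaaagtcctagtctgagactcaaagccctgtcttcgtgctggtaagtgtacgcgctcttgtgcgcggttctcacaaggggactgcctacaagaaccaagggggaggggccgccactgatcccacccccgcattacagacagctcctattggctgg
Sdha, which was level or higher in db/db lines, holds 2 NRF1 matches in these bases, and Ndufs5, which was lower in db/db lines, holds 1. The bases of Sdhb, the steepest fall of complex II, and of Cox6b2, which rose, hold no match to the NRF1, ETS or YY1 letters. The full windows, which run past these bases, hold 3 NRF1 matches for Sdha, 1 for Ndufs5 and 1 ETS match for Sdhb, and for Cox6b2 none of these 3 motifs.

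Other genes of the same machinery were read from lists, whose counts of falls stand beside 18.0% of all genes in corrected against db/db lines and 17.0% in corrected against control lines. Of 48 assembly factors, 18 fell and 2 rose in corrected against db/db lines (median log2 -0.21), 18 fell and 2 rose against control lines (-0.18), and 2 rose and 3 fell in db/db against control lines (0.04). Ndufaf4, an assembly factor of complex I, was at 13.3 and 13.2 CPM in corrected lines, 20.1 to 21.7 CPM in db/db lines and 23.4 to 25.8 CPM in control lines, and fell in all 3 comparisons (log2 -0.65, -0.91 and, in db/db against control lines, -0.26). Cox10, which makes the haem of complex IV, fell by 0.76 ± 0.09 and 0.71 ± 0.09. Tmem70, an assembly factor of complex V, went the other way: it rose by 0.50 ± 0.09 in corrected against db/db lines (adjusted p = 0.0027) and fell by 0.43 ± 0.08 in db/db against control lines (adjusted p = 0.006). Of 16 genes of electron carriers, 7 fell and 1 rose in corrected against db/db lines and 6 fell and 1 rose against control lines; Pdss1, of ubiquinone synthesis, fell by 0.79 and 0.87, and Coq8a, also of ubiquinone synthesis, rose by 0.80 and 0.82. All 7 carriers of nucleotides, phosphate and ions of the inner and outer membrane had negative values against db/db lines, and 4 fell; Slc25a4, which exchanges ADP for ATP, fell by 0.69 (adjusted p = 8.4e-05). Of 17 citrate cycle genes 3 fell and 1 rose against db/db lines, and 3 fell and 2 rose against control lines, shares of falls near those of all genes.

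Of the 13 subunits made from mitochondrial DNA, the share that fell was not far from the 18.0% and 17.0% of all genes. In corrected against db/db lines 3 fell and 0 rose (median log2 -0.27), and against control lines 3 fell and 1 rose (-0.17). The genes that fell were mt-Nd1, mt-Nd2 and mt-Co1 in both comparisons. mt-Co1, the catalytic subunit of complex IV, fell by 0.45 (adjusted p = 0.0024) and 0.46 (adjusted p = 0.0027). mt-Nd3, a membrane subunit of complex I, was the 1 gene called higher: it was at 65.7 and 63.4 CPM in corrected lines, 48.3 to 72.7 CPM in db/db lines and 10.3 to 23.7 CPM in control lines, and rose by 1.92 (adjusted p = 0.0014) and by 1.80 (adjusted p = 0.0022) against control lines. The libraries were selected for poly(A) RNA, so levels of these transcripts also depend on their tails.

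Regulators of respiratory genes were counted in the same fit. In corrected against db/db lines 6 of 9 tested fell and none rose, against control 4 fell, and in db/db against control lines 2 rose. Yy1, a factor of many respiratory promoters, was at 118 and 112 CPM in corrected lines, 171 to 174 CPM in db/db lines and 138 to 158 CPM in control lines, and fell by 0.59 (adjusted p = 0.0002) and 0.38 (adjusted p = 0.002). Nrf1 fell by 0.29 against db/db lines (adjusted p = 0.021), and Pprc1, a coactivator related to PGC-1, fell by 0.55 and 0.48. Myc, also a STEMCCA factor, was at 397 and 381 CPM in corrected lines and 612 to 830 CPM in db/db lines. Its control lines had 552 to 647 CPM. Gabpa stood higher in corrected lines, at 155 CPM in both, than in db/db lines, at 68.4 to 141 CPM, without a call. Its control lines had 150 to 191 CPM. Hif1a fell by 0.28 against db/db lines (adjusted p = 0.035) and rose by 0.26 in db/db against control lines (adjusted p = 0.038). Ppargc1a, the coactivator PGC-1 alpha, was at 0.0863 CPM or less in every line. Of 11 genes that maintain mitochondrial DNA and its transcripts, 6 fell and 1 rose in both comparisons of corrected lines. Tfam, which packs mitochondrial DNA, fell by 0.48 and 0.36, and Lrpprc, which stabilises mitochondrial transcripts, fell by 0.65 and 0.56.

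Markers of some cell types moved with the groups. Pluripotent cell markers were high in all lines, with a summed level of 5661 and 5679 CPM in corrected lines. The sum was 6232 to 6655 CPM in db/db lines and 5802 to 6359 CPM in control lines. In corrected against db/db lines 4 of 8 fell and 1 rose. Sox2 fell by 0.705 and Pou5f1 by 0.25. Both are STEMCCA factors (Pou5f1 is Oct4), and Sox2 lies on chromosome 3. Nanog stood higher, at 553 and 542 CPM in corrected lines, against 384 to 428 CPM in db/db lines. Of 9 tested extraembryonic endoderm markers 8 rose in corrected against db/db lines and 6 against control lines, where 18.7% and 16.2% of all genes rose. Their summed level was 322 and 304 CPM in corrected, 126 to 160 CPM in db/db and 150 to 160 CPM in control lines. Most of that sum was Col4a1 and Lamb1. Gata6 and Sox17, which define these cells, were low, Gata6 at 1.46 to 1.47 CPM in corrected lines, 0.313 to 0.603 CPM in db/db lines and 1.02 to 2.6 CPM in control lines, and Sox17 at 1.20 to 1.55 CPM, 0.152 to 0.51 CPM and 0.67 to 0.762 CPM in the same groups, and Foxa2 and Afp at 0.173 CPM or less, with Afp at 0 in db/db line 2. Of 9 tested fibroblast markers 6 fell in db/db against control lines, where 9.5% of all genes fell. Their summed level was 105 to 164 CPM, against 212 to 294 CPM. In corrected against db/db lines 2 of 9 rose (143 to 183 CPM in corrected lines). Pdgfra is on both the endoderm and the fibroblast list. Trophoblast, neural progenitor and muscle markers had 1 rise and 1 fall, 0 rises and 1 fall, and no call in corrected against db/db lines. The part of these cell types in the levels of the subunit genes was not tested, and in pooled cells fewer cells of a type cannot be told apart from less RNA in each. Shared handling of the corrected libraries with the other groups is not stated, so handling and correction cannot be told apart.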

How the data were processed

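Poly(A) RNA of 19 libraries was made into stranded TruSeq libraries, per the labels' protocols. The authors deposited estimated counts per gene. The submitters' processing notes name kallisto and GRCm38; version, index and summing of transcripts are not given in the sources used. Of 52143 identifiers, 51250 matched GENCODE M21 and carried 99.37% of all counts; 79.7% of values were whole within 1e-06. Reads that match several transcripts are split by estimation, which makes near-identical copies uncertain. Library totals had a median of 34455891.

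The estimated counts were rounded per library and summed per line, because separate cultures for the libraries of a line are not stated. The 3 groups entered a single edgeR 4.0.16 fit (R 4.3.3; filterByExpr, 19702 genes; TMM; quasi-likelihood F-test), with Benjamini-Hochberg adjustment over all genes and a threshold of 0.05. A standard error is the fold change divided by the root of F. P-values measure the spread between lines, some of them nearly alike, and may be too small. CPM values are scaled by TMM. Medians per complex used log2 CPM with a prior count of 2. Ratios per length divide CPM by the length of the principal transcript. Members and lists were chosen with earlier results of these data known. Genes were named, per comparison, from the up to 8 largest called rises and falls with at least 5 CPM and no overlap of lines, a fixed set of core subunits (1 of them is not reported here), all tested paralogues, and up to 2 genes of each list with the lowest p, of which not all are printed. Other genes were added after their values were seen. Alternatives were DESeq2 1.42.0 (size factors or test), library size alone, upper quartile, other filters, libraries or shared names as samples, and leaving out lines, chromosomes or a library. The fit was tested on simulated data.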

Additional observations from a re-analysis of the deposited data

Results flagged for a closer look

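Among 88 sets of 4 db/db or 4 control lines, 1 for each named subunit gene and group, 2 had a line far from the other 3 by Dixon's rule, where chance gives about 1 in 20. Both were db/db line 4: Ndufs7, a core subunit of complex I, was at 45.0 CPM there, against 55.5 to 56.8 CPM in the other db/db lines, and Atp5o, which couples head and stalk of the ATP synthase, was at 153.9 CPM, against 176 to 177 CPM.

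Db/db lines of different names lay on opposite sides of the control lines for a pair of genes, a difference that was not tested. Ndufa4l2 was above every control line in the db5 lines and below every one in the db7 lines, with a log2 difference of -1.744 for db7 minus db5. Atp5b, the beta subunit of the ATP synthase, showed the same order with a difference of -0.249.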

How the results depend on the processing

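In corrected against db/db lines (46 fell, 1 rose, median log2 -0.282) library size alone gave 14 falls, 3 rises and a median of -0.108. Of all 19702 genes, 1817 then fell and 5220 rose. A filter of at least 5 CPM in 2 lines gave 29, 2 and -0.202, with 2374 falls and 2505 rises among 11226 genes. Shared names gave 19 and 0. Upper quartile scaling gave 2 rises, no filter 0, and each library as a sample 3. Against the db5 lines alone 2 rose, where 4313 of all 19574 genes did. Against the db7 lines alone, chosen like the db5 lines after seeing the data, 29 fell, 4 rose and the median was -0.194. There 3500 of all 19546 genes fell and 3845 rose. Leaving out each line in turn gave at most 56 falls and at most 1 rise. The most falls came without db/db line 4, where 3778 of all 19567 genes fell. Without corrected line 1 or 2 fewer fell, both among the subunit genes and among all genes. The median of the subunit genes was then -0.281 or -0.28. In corrected against control lines (51 fell, 2 rose, -0.335) library size alone gave 24 falls and a median of -0.205. Of all 19702 genes, 2049 then fell. Shared names gave 17 falls and 1 rise. DESeq2's size factors and no filter each gave 1 rise. Leaving out each line gave 7 to 58 falls and 1 to 2 rises. Library size alone moved the median of all genes by 0.172 and 0.13, and the median of the subunit genes stayed 0.301 and 0.326 below it (0.303 and 0.326 under TMM).

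In db/db against control lines (6 rose, 4 fell, -0.012) rises were 3 by library size, 10 by DESeq2's test, 3 with no filter, 2 with only those groups fitted, 0 by shared name and 1 to 5 without each line, at most 3 except without db/db line 1 or 4. Falls were 2 with the 5 CPM filter, 0 by shared name, 18 with the db7 lines alone (median -0.099) and 3 to 6 without each line. Each library as a sample gave 13 rises and 16 falls, and the duplicate number as a replicate block 12 and 15. Of all genes, 3580 rose and 3669 fell of 17548 by library, and 2936 rose and 3254 fell of 16233 with the block. With the db7 lines alone 2920 of all 19546 genes fell, and with the 5 CPM filter 1154 of 11226. By library size 1086 of all 19702 genes rose, and by DESeq2's test 2288. No filter gave 1237 rises of 34202, and only those groups fitted 973 of 17983. Deviations of libraries with the same duplicate number correlated at 0.015 to 0.531 in 12 pairs of a control and a db/db line (9153 genes), and, in a set of genes added after seeing the data, at 0.238 to 0.564 over the 9129 genes with at least 2 CPM in every library. The numbers were not taken as a pairing, by the lowest value of the first range, and they would have been by the second. No blocked fit was possible for the corrected lines, whose duplicates carry letters. Ndufa4l2 (log2 0.19, not called) turned to -0.932 with the db7 lines alone (adjusted p = 0.024); the cause was not tested.

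Mean complex medians of the corrected lines were -0.201, 0.014, -0.21, -0.107 and -0.241 for complexes I to V by library size, and -0.213, 0.002, -0.222, -0.119 and -0.253 scaled to the sum of protein-coding nuclear genes, against -0.331, -0.116, -0.341, -0.237 and -0.372 under TMM. Of 2242 values of single genes under the alternatives, 1981 kept their side of the threshold (37 of these, not called, changed sign), 187 lost the call, 73 gained it and 1 reversed. Without a corrected line the other is assumed to vary like the other groups.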
